A study of Homo sapiens with 10 samples.

Results

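The genes of the core histones H2A, H2B, H3 and H4 and of their replacement variants were taken from the RNA-seq table of 697 cells by symbol. A gene was a member if it was protein-coding and its symbol began with HIST1 to HIST4 followed by H2A, H2B, H3 or H4, or with H2AF or H3F3. This gave 76 of the 27142 genes listed. Of these, 64 were clustered core histone genes (17 for H2A, 18 for H2B, 14 for H3 and 15 for H4) and 12 were replacement variant genes (9 of the H2A family and 3 of the H3 family). The 697 line is a human pre-B acute lymphoblastic leukaemia cell line. TPA (12-O-tetradecanoylphorbol-13-acetate) is a phorbol ester that activates protein kinase C. The groups compared were 2 untreated control libraries and 2 libraries of cells given TPA at 0.5 µg/ml, all from the parental line. The labels give the time with TPA only as a range of 0 to 24 h and do not say that the replicates were separate cultures, so the p-values measure only the spread between these libraries, which may be technical. The labels describe total RNA, and whether polyadenylated RNA was selected for the libraries is not given in the sources used here. If it was, the clustered genes' values count only their polyadenylated transcripts and not all of their mRNA, which bears on every clustered value below.

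Levels are given as RPKM, which divides reads by transcript length and by library size, so that genes can be compared per length. Read totals are not given in the sources used here. The step between low values placed the depth of the other libraries at 91.3% to 97.8% of that of control replicate 1, and summed RPKM over all genes lay between 349438 and 388846. All 12 B-lineage markers examined passed the filter used for testing; 3 rose and 9 fell, and their summed level went from 2309.5 ± 1.39 to 1316 ± 128 RPKM. PAX5 fell from a mean of 77.3 to 33.3 RPKM, whereas CD79A went up from 208 to 858 RPKM. Of the 7 T-cell markers 1 was tested, the kinase gene LCK, and it rose; their summed level lay between 10.1 and 12.4 RPKM in control and between 68.8 and 77.9 RPKM with TPA. CD3D, CD3E, HBB and PF4 were listed at 0 in every library. The summed level of the 7 myeloid markers lay between 0.667 and 1.03 RPKM in control and between 3.17 and 3.96 RPKM with TPA, most of it from CSF1R. That of the 5 erythroid markers stayed between 0.038 and 0.161 RPKM and that of the 3 megakaryocyte markers between 1.03 and 1.38 RPKM. The part of these markers in the histone results was not tested.

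DNA is wrapped around octamers of H2A, H2B, H3 and H4. The clustered genes supply most of these proteins during S phase. Cyclin E with CDK2 acts on the coactivator NPAT at these genes, and their mRNAs normally end in a stem-loop that is bound by SLBP instead of a poly(A) tail. Some clustered genes can also give polyadenylated transcripts. Replacement variants come from genes that give polyadenylated mRNAs, and most can be placed outside replication. H2AFX also gives a stem-loop mRNA linked to replication, so it shares features with the clustered genes. The variants have typical places: H2A.Z at promoters and enhancers, macroH2A in repressed chromatin, H2A.X throughout chromatin, where it is phosphorylated at DNA breaks, and the H3 variant of the H3F3 genes at active and remodelled chromatin.

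Promoters are shown here because the members moved in different directions, even when a pair of them shares one stretch of DNA. All 76 members matched a RefSeq gene by accession, and 70 of them (59 clustered) had a promoter in the RefSeq table for GRCh38.p14; the submitters' processing notes name hg19, so these coordinates belong to another build. Searched on both strands in the 250 bases before the start were the octamer ATTTGCAT, which Oct factors bind, the CCAAT box (CCAAT) and the TATA box (TATAAA). Capitals mark these 3 motifs in either orientation. Their letters can overlap at the ends. The first 2 sequences are whole intervals between the starts of genes transcribed away from each other, read on the plus strand from the H2B gene to the H2A gene: HIST2H2BE to HIST2H2AC at chr1:149886683-149886917 and HIST1H2BC to HIST1H2AC at chr6:26123927-26124171. The other 5 are the 120 bases before the start of 2 clustered genes with high values and 3 replacement variants, on the gene's own strand: HIST1H2BK (minus, chr6:27146859-27146978), HIST1H2BD (plus, chr6:26158001-26158120), H2AFZ (minus, chr4:99950276-99950395), H2AFX (minus, chr11:119095466-119095585) and H3F3B (minus, chr17:75779780-75779899).
HIST2H2BE to HIST2H2AC: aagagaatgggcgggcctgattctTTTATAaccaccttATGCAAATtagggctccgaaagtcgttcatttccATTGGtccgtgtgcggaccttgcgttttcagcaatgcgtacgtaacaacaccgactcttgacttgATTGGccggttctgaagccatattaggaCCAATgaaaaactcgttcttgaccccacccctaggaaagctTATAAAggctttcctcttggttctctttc
HIST1H2BC to HIST1H2AC: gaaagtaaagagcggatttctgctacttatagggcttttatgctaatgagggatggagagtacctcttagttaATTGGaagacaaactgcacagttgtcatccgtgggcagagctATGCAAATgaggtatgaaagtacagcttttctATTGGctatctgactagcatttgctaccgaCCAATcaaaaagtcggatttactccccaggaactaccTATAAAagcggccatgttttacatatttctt
HIST1H2BK: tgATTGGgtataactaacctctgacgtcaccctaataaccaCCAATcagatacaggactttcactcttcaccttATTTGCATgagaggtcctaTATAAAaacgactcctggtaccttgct
HIST1H2BD: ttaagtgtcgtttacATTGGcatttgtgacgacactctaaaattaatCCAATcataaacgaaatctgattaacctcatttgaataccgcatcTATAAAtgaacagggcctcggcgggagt
H2AFZ: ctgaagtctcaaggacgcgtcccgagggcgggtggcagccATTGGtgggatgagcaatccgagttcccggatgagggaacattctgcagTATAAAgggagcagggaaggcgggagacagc
H2AFX: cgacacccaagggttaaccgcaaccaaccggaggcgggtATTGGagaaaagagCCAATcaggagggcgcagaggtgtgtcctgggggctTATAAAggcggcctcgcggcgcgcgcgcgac
H3F3B: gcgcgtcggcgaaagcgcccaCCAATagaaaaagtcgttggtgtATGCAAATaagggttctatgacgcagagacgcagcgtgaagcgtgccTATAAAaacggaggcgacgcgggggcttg

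The octamer was present in 14 of 18 clustered H2B promoters and 11 of 16 clustered H2A promoters, against 1 of 12 for H3 and 0 of 13 for H4. Among all 35116 promoters of the same length, 1.63% held it. These counts and those that follow are by gene and not by separate site. H2A and H2B genes transcribed away from each other in pairs had starts 194 to 248 bases apart. A single site could thus count for both genes of a pair. HIST1H2AD and HIST1H3D have the same window. The CCAAT box was in 49 of the 59 clustered promoters and the TATA box in 40, against 32.0% and 10.7% of all promoters. The E2F site TTTNGCGC, with N any base, was also searched but is not marked above. It was in 11 of the 59 clustered promoters, 0 of 11 replacement promoters and 1.51% of all promoters. Octamers were found in promoters of genes that rose and of genes that did not. HIST2H2BE, which rose, and HIST2H2AC, which fell, have the same octamer between them, so the groups counted here share sites. Of the 19 clustered genes that rose in the test below, 11 had an octamer. Of the other 40 with a promoter, which did not rise or were not tested, 15 had one. Within clustered H2B, 6 of 8 promoters of genes that rose had it, against 8 of the other 10. Only HIST1H2BH of those 10 was tested, so the counts do not compare genes that rose with genes shown not to rise. Among the untested, HIST1H2BE, HIST1H2BO and HIST2H2BF had both TPA libraries above both controls, and HIST1H2BI and HIST1H2BM had both below. The octamer was in 5 of 9 promoters of clustered genes with both TPA libraries below both controls. HIST1H2AJ and HIST1H2BM, a pair, are among these. HIST1H2BD, which rose, has no octamer letters within those 250 bases, whereas the window of H3F3B holds one. Both H2AFZ and H2AFX carry a CCAAT box and a TATA box in the windows shown.

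With TPA the summed RPKM of the clustered genes was higher and that of the replacement variants lower. Summed over all 64 clustered genes, the level was 84.6 and 73.2 RPKM without TPA and 285 and 448 RPKM with it. Summed over the 12 replacement variants, it was 1333 and 1594 in control and 513 and 629 with TPA. The clustered sum was thus higher in both TPA libraries, 4.64-fold between the group means, and the replacement sum was lower in both, 2.56-fold. Clustered genes made up 5.97% and 4.39% of the RPKM of all members in control and 35.7% and 41.6% with TPA. Since selection of polyadenylated RNA is unknown, these are shares of the listed RPKM and not of histone mRNA. The sums carry no test. The replacement sum rested largely on H2AFZ: without it the log2 ratio of TPA to control was -0.45 in place of -1.36.

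**Figure D1:**
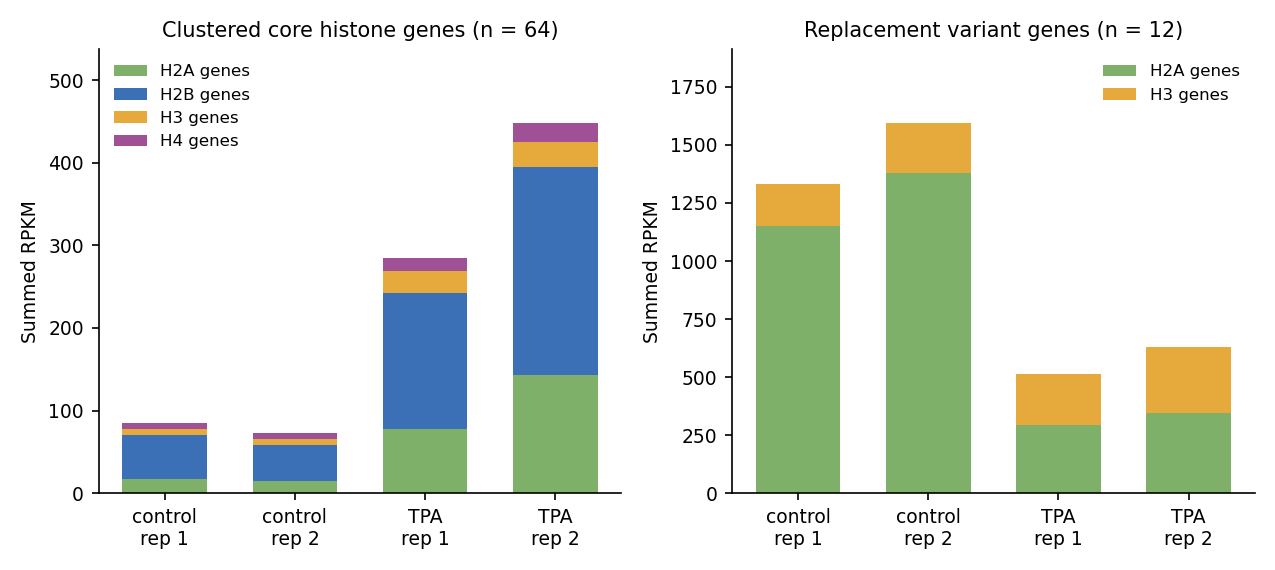
Summed RPKM of the clustered core histone genes (left) and the replacement variant genes (right) in each library, stacked by histone; each bar is 1 library and the axes differ. The clustered sum was 84.6 and 73.2 RPKM in control and 285 and 448 RPKM with TPA, and the replacement sum was 1333 and 1594 RPKM in control and 513 and 629 RPKM with TPA.

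Differences were tested with limma on log2(RPKM + 1) in the 12159 genes that reached 1 RPKM in 2 or more libraries, with Benjamini-Hochberg adjustment across them. The filter kept 30 members, 23 clustered and 7 replacement genes. On this scale fold changes of low genes are understated. Over all genes tested 28.4% rose and 29.8% fell at an adjusted p under 0.05, with a median log2 fold change of -0.02. Of the 7 replacement variants tested, 4 fell, 3 did not pass and 0 rose, with a median log2 fold change of -0.75.

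H2AFZ, which encodes the main H2A.Z protein, had 729 and 930.3 RPKM in control and 96.3 and 120.1 RPKM with TPA. The highest TPA value was far below the lowest control value. The fall was 7.67-fold, from 829 ± 143 to 108 ± 16.9 RPKM (mean ± SD, n = 2 libraries per group, as elsewhere), with a log2 fold change of -2.92 (SE 0.176, limma adjusted p = 5.18e-06). In control H2AFZ ranked 47 among the 19302 protein-coding genes by level, and with TPA it ranked 451. It alone supplied 51.4% and 55.8% of the RPKM of all members in control and 12.1% and 11.2% with TPA.

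H2AFV encodes the second H2A.Z protein and had 67.8 and 73.6 RPKM in control and 33.9 and 41.7 RPKM with TPA. It fell 1.87-fold (log2 fold change -0.89, SE 0.150, limma adjusted p = 0.00134), so both H2A.Z genes were lower but not to the same degree. H2AFZ exceeded H2AFV 10.7 and 12.6 times in the control libraries and 2.84 and 2.88 times in the TPA libraries, and H2AFV rose as a share of their sum from 8.52% and 7.33% to 26.0% and 25.8%. The difference between the 2 fold changes was not tested.

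H2AFX, the gene of the H2A variant that is phosphorylated around DNA breaks, had 106 and 88.3 RPKM in control and 16.8 and 15.97 RPKM with TPA. It fell 5.92-fold (log2 fold change -2.49, SE 0.144, limma adjusted p = 4.23e-06), with the TPA replicates close together. In the GRCh38 annotation it overlaps DPAGT1, and strand use in counting is not given in the sources used here, so reads of the 2 genes may not have been told apart. H2AFY, which encodes the macroH2A.1 proteins, had 249 and 286 RPKM in control and 148 and 169 RPKM with TPA. It fell 1.69-fold (log2 fold change -0.75, SE 0.147, limma adjusted p = 0.00296) and had the highest level of the H2A-family variants in both TPA libraries, where H2AFZ had the highest in control. The noncoding gene PITX1-AS1 overlaps it.

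None of the 3 H3F3 genes passed the test. H3F3B, which encodes H3.3, had 147 and 174 RPKM in control and 182 and 231 RPKM with TPA, so the groups did not overlap but lay close. Its log2 fold change of 0.35 (SE 0.167) did not pass (limma adjusted p = 0.104), but an adjusted p of 0.0259 was reached with median-of-ratios scaling, 0.00655 with quantile normalization, 0.00856 with the replicate number as a block and 0.0434 without TPA replicate 1. H3F3C, the gene of the H3.5 variant and a copy close in sequence to H3F3B, with which it may share reads, had 18.9 and 21.7 RPKM in control and 22.6 and 31.7 RPKM with TPA and did not pass either (log2 fold change 0.39, limma adjusted p = 0.101). It passed under the same 4 alternatives, with adjusted p-values of 0.039, 0.0286, 0.0119 and 0.0204.

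H3F3A, the other gene of the same H3.3 protein, had 15.1 and 19.3 RPKM in control and 13.8 and 18.9 RPKM with TPA, and the groups overlapped (limma adjusted p = 0.743). Its processed copy H3F3AP4, listed as a pseudogene, had nearly the same values, 1.01 to 1.02 times those of H3F3A in each library. Reads of H3F3A and H3F3AP4 cannot be told apart with certainty, and H3F3B was listed at 9.04 to 13.2 times H3F3A. Replacement H3 genes made up 96.3% and 97.0% of the RPKM of all H3 members in control and 88.9% and 90.5% with TPA. Replacement H2A genes made up 98.5% and 99.0% of all H2A members in control, and 79.2% and 70.8% with TPA. The remaining replacement genes, H2AFJ, H2AFY2 and H2AFB1 to H2AFB3, reached at most 0.118 RPKM in any library, and the 3 H2AFB genes, whose products are found in testis, were listed at 0; H2AFJ was listed under a noncoding accession.

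**Figure D2:**
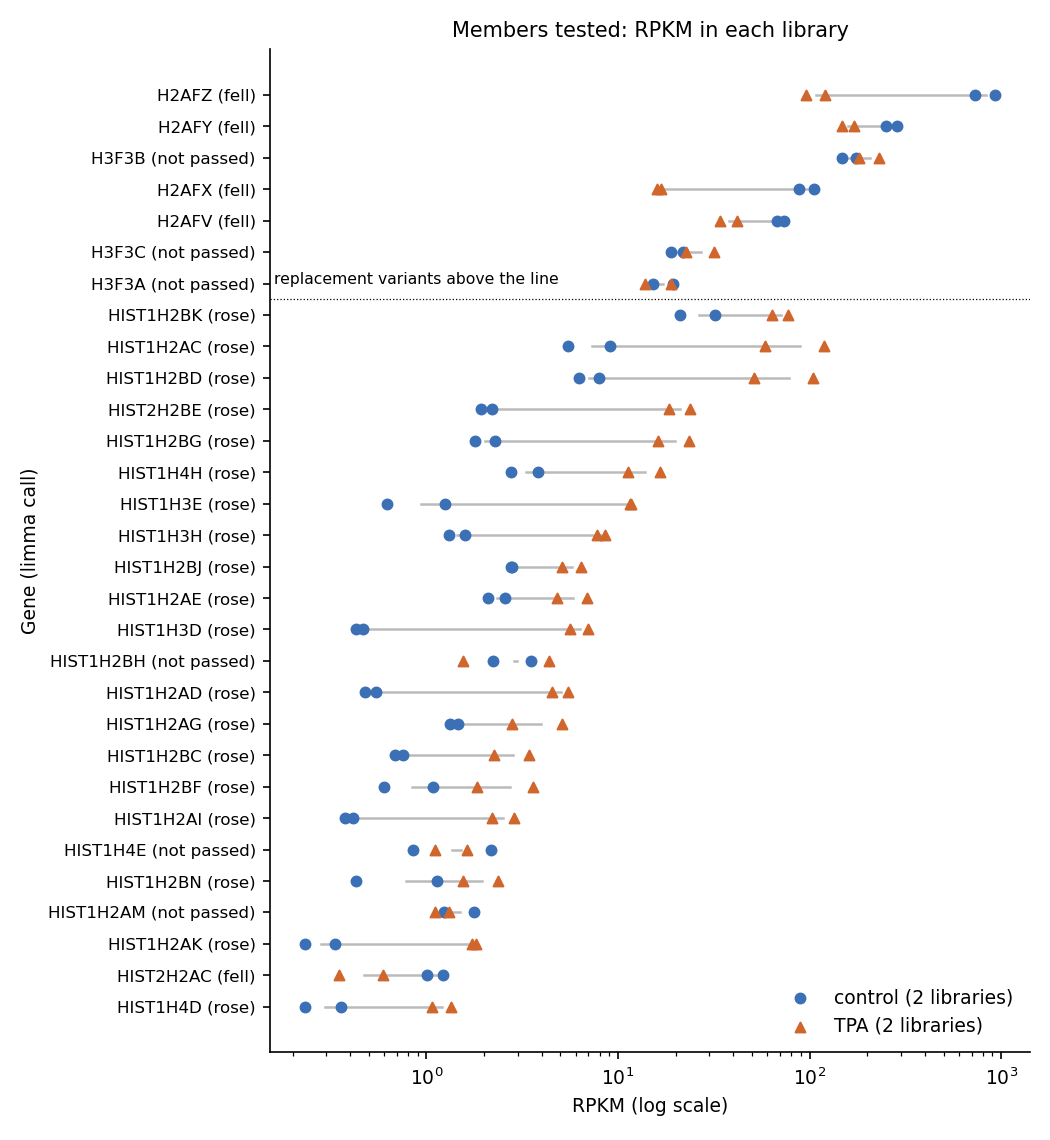
RPKM on a log scale for the 30 members tested, with 1 point per library (circles, control; triangles, TPA), a grey line between the group means and the limma call in brackets. H2AFZ and H2AFX show the widest gaps among the replacement variants, and HIST1H2AC, HIST1H2BD, HIST1H3D and HIST1H3E lie far to the right of their control values with TPA.

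Among the 64 clustered genes, 25 had both TPA libraries above both controls, 13 had both below, 18 overlapped and 8 were listed at 0 throughout. Among all genes above 0 in at least 1 library, 36.6% were higher and 29.9% lower in this sense. Of the 56 clustered genes above 0, the shares were 44.6% and 23.2%. Of the 23 clustered genes that passed the filter, 19 rose, 1 fell and 3 did not pass, with a median log2 fold change of 1.14. Of the 23, 6 passed only through the TPA libraries and so had to be higher there, and 1 only through the controls. Of all 12159 genes tested, 658 passed only through TPA and 356 only through the controls. HIST1H3E, HIST1H2BF and HIST1H2BN, which rose, reached 1 RPKM in only 1 control library and so also needed a TPA library to pass. With no filter on low values, 18 of the 56 rose and 5 fell, against 19.2% and 16.8% of all genes in that fit, and the median was 0.08, against 0.01 for all genes.

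HIST1H2AC, a gene of an H2A type 1 protein, had 9.06 and 5.48 RPKM in control and 58.7 and 119 RPKM with TPA. It rose 12.2-fold, from 7.27 ± 2.53 to 88.8 ± 42.5 RPKM (log2 fold change 3.39, SE 0.325, limma adjusted p = 6.29e-05). HIST1H2BD, a gene of an H2B type 1 protein, had 7.92 and 6.24 RPKM in control and 50.9 and 104 RPKM with TPA, a rise of 11.0-fold (log2 fold change 3.20, SE 0.297, adjusted p = 5.18e-05). The 2 genes kept similar levels: HIST1H2AC stood at 1.14, 0.879, 1.152 and 1.14 times HIST1H2BD in control replicates 1 and 2 and TPA replicates 1 and 2. For both, TPA replicate 2 was well above TPA replicate 1, and both TPA values were above both controls. In the GRCh38 annotation the noncoding gene H2BC6-AS1 and the pseudogene LARP1P1 overlap HIST1H2BD.

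HIST1H2BK was the clustered gene with the highest level in control, at 32.0 and 21.1 RPKM, and had 63.8 and 77.2 RPKM with TPA. It rose 2.66-fold (log2 fold change 1.40, SE 0.206, limma adjusted p = 6.46e-04), and its groups did not overlap. HIST1H4I overlaps it in the GRCh38 annotation. Together HIST1H2BK, HIST1H2AC and HIST1H2BD supplied 57.8% and 44.8% of the clustered RPKM in control and 60.9% and 67.1% with TPA. Without these 3, the clustered sum was 35.7 and 40.4 RPKM in control and 111 and 147 RPKM with TPA. The higher sum was therefore not theirs alone, and it remained 3.40-fold higher over the other 61 genes.

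A further 4 genes had a mean of at least 5 RPKM over the libraries, and all rose. HIST2H2BE, an H2B gene of the 1q21.2 cluster, had 2.21 and 1.93 RPKM in control and 18.4 and 23.9 RPKM with TPA (10.2-fold, limma adjusted p = 3.49e-06). HIST1H2BG, which also encodes an H2B type 1 protein, had 2.27 and 1.79 RPKM in control and 16.1 and 23.5 RPKM with TPA (9.75-fold, adjusted p = 1.05e-05). Their control values were low and close together, and every TPA value was at least 16.1 RPKM. HIST1H3E, an H3 gene, had 1.25 and 0.62 RPKM in control and 11.6 and 11.7 RPKM with TPA (12.4-fold, adjusted p = 6.89e-06). HIST1H4H, an H4 gene, had 3.83 and 2.77 RPKM in control and 11.2 and 16.5 RPKM with TPA (4.20-fold, adjusted p = 1.64e-04). So genes of all 4 histones were among those that rose.

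The other 12 genes that rose had TPA means from 1.21 RPKM (HIST1H4D) to 8.13 RPKM (HIST1H3H), and their rises ran from 2.07-fold for HIST1H2BJ to 14.1-fold for HIST1H3D. HIST1H3D had 0.464 and 0.43 RPKM in control and 5.62 and 6.99 RPKM with TPA, and HIST1H2AD had 0.546 and 0.475 RPKM in control and 4.55 and 5.47 RPKM with TPA. These 2 share 1 annotated start and overlap in GRCh38, so their reads could be counted for both and their rises may not be separate. HIST1H3H had 1.59 and 1.30 RPKM in control and 7.73 and 8.53 RPKM with TPA. The remaining 9 were HIST1H2AE, HIST1H2AG, HIST1H2AI, HIST1H2AK, HIST1H2BC, HIST1H2BF, HIST1H2BJ, HIST1H2BN and HIST1H4D. HIST1H3D, HIST1H2AD, HIST1H2AI, HIST1H2AK, HIST1H2BC and HIST1H4D were below 1 RPKM in both controls. They passed the filter only through the TPA libraries and so had to be higher there. HIST1H2BN was the least secure, at 0.43 and 1.13 RPKM in control and 1.56 and 2.35 RPKM with TPA (limma adjusted p = 0.0175). It no longer passed without control replicate 1 (adjusted p = 0.0765), without TPA replicate 2 (0.0977), after quantile normalization (0.0716), against a 1.2-fold change (0.0657), with no filter (0.101) or at an adjusted p under 0.01. HIST1H2AG and HIST1H2BF did not pass with no filter (0.0532 and 0.0729).

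HIST1H2AM, HIST1H2BH and HIST1H4E did not pass, and in each the groups overlapped. HIST1H2BH had 2.22 and 3.53 RPKM in control and 1.55 and 4.36 RPKM with TPA. HIST1H4E had 0.854 and 2.17 RPKM in control and 1.10 and 1.62 RPKM with TPA, and HIST1H2AM had 1.23 and 1.76 RPKM in control and 1.30 and 1.11 RPKM with TPA. For each of these genes the spread between the control libraries exceeded the difference between the group means.

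HIST2H2AC, an H2A gene of the 1q21.2 cluster, was the only clustered gene tested that fell. It passed the filter only through the control libraries and so had to be lower with TPA. It had 1.23 and 1.01 RPKM in control and 0.351 and 0.591 RPKM with TPA (log2 fold change -0.53, SE 0.143, limma adjusted p = 0.0135). The call was lost without control replicate 1 (adjusted p = 0.0679), against a 1.2-fold change (0.109) and at an adjusted p under 0.01. Among the 41 clustered genes below the filter, 12 had both TPA libraries below both controls, 6 had both above, 15 overlapped and 8 were listed at 0. HIST1H2BI was at 0.441 and 0.303 RPKM in control and listed at 0 with TPA, HIST1H3F at 0.598 and 0.567 and then 0.047 and 0.252 RPKM, HIST1H3I at 0.404 and 0.693 and then 0 and 0.148 RPKM, and HIST1H4C at 0.275 and 0.339 and then 0.056 and 0.12 RPKM. In the limma fit with no filter these 4 fell, with adjusted p-values of 0.00848, 0.0299, 0.039 and 0.0186. HIST1H4K (0.06 and 0 RPKM in control, 0.741 and 0.53 RPKM with TPA) and HIST1H2BE (0 and 0.051 RPKM in control, 0.252 and 0.486 RPKM with TPA) rose there, with adjusted p-values of 0.00775 and 0.0371.

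The low values rest on few reads. The smallest value above 0 among the clustered genes was 0.046 RPKM, and 117 of their 256 values lay above 0 and below 1 RPKM. Of the members not tested, 15 reached 0.5 RPKM in a library: HIST1H3F, HIST1H3I and HIST1H4K above, and HIST1H2AH, HIST1H2BL, HIST1H2BM, HIST1H2BO, HIST1H3B, HIST1H3C, HIST1H3G, HIST1H3J, HIST1H4A, HIST1H4I, HIST2H2BF and HIST4H4. The highest single value among them was 1.84 RPKM, in HIST1H4I, against 0.415 RPKM in the other TPA library. HIST1H3G had 1.14 and 0.988 RPKM in control and 0.748 and 0.401 RPKM with TPA, and HIST1H2BO had 0.734 and 0.849 and then 0.984 and 1.76 RPKM. The near-identical copies HIST2H2AA3 and HIST2H2AA4, and HIST2H3A and HIST2H3C, were listed at 0 in every library, HIST2H3D reached 0.24 RPKM, and HIST2H4A and HIST2H4B had the same value in each library, 0 in 3 of them and 0.059 RPKM in TPA replicate 2. How reads that map to several copies were treated is not given in the sources used here, so the levels of such genes are uncertain.

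**Figure D3:**
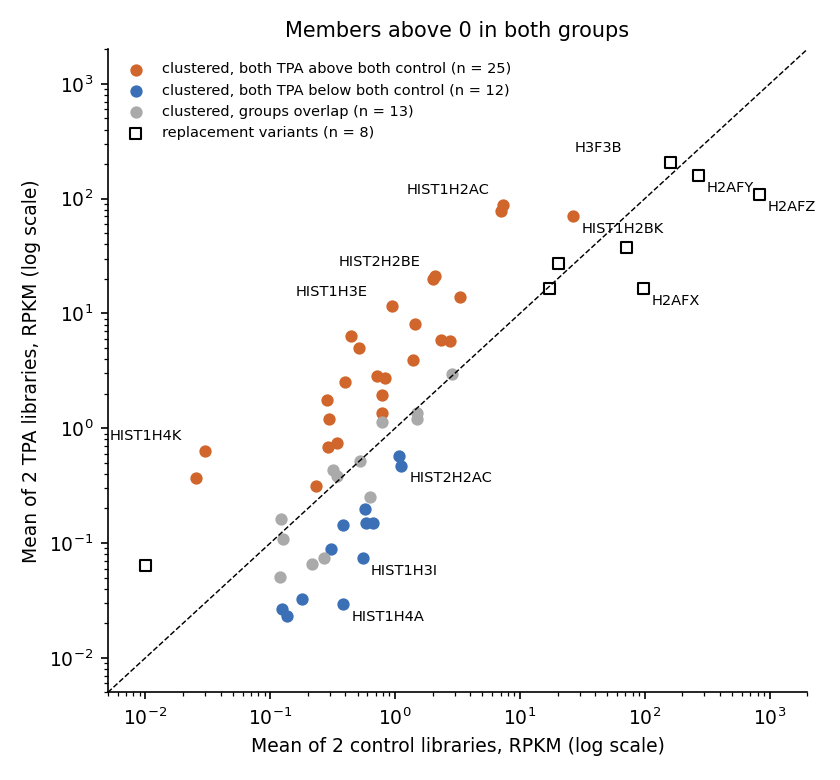
Mean RPKM with TPA against mean RPKM in control, both on log scales, for the members above 0 in both groups; the dashed line marks equal values. Clustered genes with both TPA libraries above both controls (n = 25) lie over the line up to HIST1H2AC and HIST1H2BK, those with both below (n = 12) lie under it at 1.117 RPKM or less in control, and the squares are the 8 replacement variants.

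H2A and H2B genes of the clusters often stand in divergent pairs with starts close together. Among members with a promoter entry, 11 such pairs were found, with 194 to 248 bases between the starts. Both genes rose in 5 pairs, 1 gene rose in 2 pairs and neither in 4. In those 4 pairs only HIST1H2AM was tested. Over all genes tested, 28.4% rose. Among the paired genes that rose, HIST1H2AD, HIST1H2AI, HIST1H2AK and HIST1H2BC passed the filter only through TPA and so had to be higher there. HIST2H2BE and HIST2H2AC, whose shared stretch is printed above, moved apart: HIST2H2BE rose to 21.1 ± 3.84 RPKM while HIST2H2AC fell to 0.471 ± 0.170 RPKM, a 44.9-fold gap between the TPA means, against 2.07 and 1.117 RPKM in control. HIST2H2AC passed the filter only through the controls, so it had to be lower with TPA, and its TPA values were low. HIST1H2AC and HIST1H2BC, across the second printed stretch, both rose, to means of 88.8 and 2.84 RPKM. HIST1H2AC already stood at 13.2 and 7.28 times HIST1H2BC in the control libraries, and it stood at 17.1 and 52.9 times in TPA replicates 1 and 2, so the gap with TPA depended on the library. In contrast, HIST1H2AK and HIST1H2BN reached 1.77 and 1.96 RPKM. HIST1H2AI rose to 2.52 ± 0.465 RPKM, whereas HIST1H2BL across from it had means of 0.629 and 0.252 RPKM and was not tested. HIST1H2BG and HIST1H2AE had 2.03 and 2.34 RPKM in control and 19.8 and 5.83 RPKM with TPA, so HIST1H2BG went from 0.88 and 0.848 times HIST1H2AE to 3.34 and 3.42 times.

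**Figure D4:**
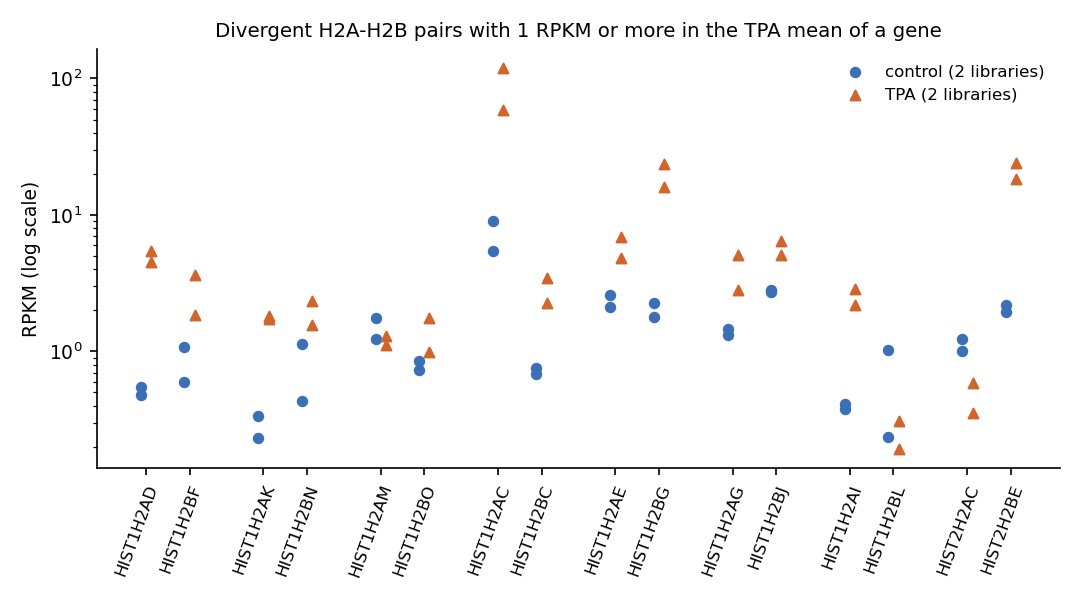
RPKM on a log scale in each library for the 8 divergent H2A-H2B pairs in which a gene had a TPA mean of at least 1 RPKM (circles, control; triangles, TPA; neighbours on the axis form a pair). In HIST2H2AC and HIST2H2BE the TPA values lie on opposite sides of the control values, and in HIST1H2AC and HIST1H2BC both are higher, with HIST1H2AC at 17.1 and 52.9 times HIST1H2BC in the TPA libraries and 13.2 and 7.28 times in control.

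By histone, the clustered sum was highest for H2B in every library, at 53.0 and 44.2 RPKM in control and 165 and 252 RPKM with TPA. Clustered H2A genes summed to 17.7 and 14.4 RPKM in control and 77.2 and 143 RPKM with TPA. H3 genes summed to 6.998 and 6.58 RPKM and then 27.2 and 29.6 RPKM, and H4 genes to 6.98 and 7.97 RPKM and then 15.4 and 23.3 RPKM. All 4 sums were higher in both TPA libraries, between 2.59-fold for H4 and 6.86-fold for H2A. Of the genes tested, 6 of 8 H2A, 8 of 9 H2B, 3 of 3 H3 and 2 of 3 H4 genes rose, where 28.4% of all genes tested did. Of these, 3 H2A genes and 1 gene each of H2B, H3 and H4 passed the filter only through the TPA libraries and so had to be higher there.

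By position, 11 of 13 clustered genes tested in 6p22.2 and 7 of 8 in 6p22.1 rose, with median log2 fold changes of 1.78 and 1.06. Over all genes tested, 28.4% rose and 29.8% fell. The other protein-coding genes of these bands, without the linker histone genes, rose in 3 of 9 and 6 of 11 cases and fell in 0 of either, with medians of 0.32 and 0.51. The filter favoured the clustered genes here: 4 of the 13 and 2 of the 8 passed it only through TPA, against 1 of the 9 and 0 of the 11 other genes. In 1q21.2, 1 of the 2 clustered genes tested rose and 1 fell, and of 20 other genes 9 rose and 3 fell. The clustered genes of 1q42.13 (HIST3H2A, HIST3H2BB and HIST3H3) reached at most 0.136 RPKM, and HIST4H4 in 12p12.3 at most 0.798 RPKM. The linker histone gene HIST1H1C, which lies in the same cluster, had 13.2 and 12.5 RPKM in control and 50.1 and 70.9 RPKM with TPA and rose as well (limma adjusted p = 3.02e-05).

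Levels were usually higher in TPA replicate 2. Of the 19 clustered genes that rose, 17 were higher in TPA replicate 2 than in TPA replicate 1, as were 68.2% of all genes that rose and 73.1% of all genes tested. The median of this difference was 0.28 on the log2(RPKM + 1) scale over the 23 clustered genes tested and 0.13 over all genes tested. The clustered sum rose by 1.85 on the log2 scale without TPA replicate 2 and by 2.50 without TPA replicate 1.

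Genes that act in S phase and on histone mRNA were read in the same fit, from lists chosen with earlier results of these data known; over all genes tested 28.4% rose and 29.8% fell, with a median of -0.02. Each of the 16 S-phase genes fell (median -3.77 on the log2 scale), among them GINS2, CDC6 and MCM4, which act in the replicative helicase or its loading, and the clamp gene PCNA (393 ± 69.3 to 24.8 ± 6.85 RPKM). Their part in the fall of H2AFZ and H2AFX was not tested. Of 30 genes of histone gene transcription, 3' end formation and mRNA decay, 4 rose, 15 fell and 11 did not pass, with a median of -0.38. SLBP, whose product binds the stem-loop, had 31.2 and 38.9 RPKM in control and 6.64 and 8.58 RPKM with TPA (log2 fold change -2.07, limma adjusted p = 2.75e-05). The cyclin E genes CCNE2 and CCNE1 went down as well, to 1.57 from 27.3 RPKM and to 0.386 from 4.57 RPKM. NPAT fell from 8.79 to 4.94 RPKM, and CASP8AP2, which acts with it at histone genes, also fell, to 2.19 RPKM from a control mean of 6.29 RPKM. LSM11, a part of the U7 particle that cuts histone pre-mRNA, had 4.66 and 4.88 RPKM in control and 1.28 and 1.43 RPKM with TPA. The genes that rose were ZCCHC6, which adds uridines to RNA ends, CTIF and MIF4GD, which act in translation of capped or stem-loop mRNAs, and CDC73. ZCCHC6 went from 4.58 to 7.79 RPKM, and the other 3 had adjusted p-values of 0.0101, 0.0438 and 0.046.

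Of 32 chaperone and exchange genes 31 were tested; 1 rose, 22 fell and 8 did not pass, with a median log2 fold change of -0.81, where 28.4% of all genes rose and 29.8% fell. ASF1B, CHAF1A and MCM2, which handle H3 and H4 at replication forks, fell: their control means of 69.1, 50.6 and 132 RPKM became 2.94, 2.53 and 9.96 RPKM with TPA. CENPA, the centromeric H3 variant, is not a member by symbol; it had 18.3 and 21.22 RPKM in control and 2.55 and 2.87 RPKM with TPA (log2 fold change -2.48, limma adjusted p = 3.65e-06), and its chaperone gene HJURP fell with a log2 fold change of -2.81. Among genes for placing H3.3, HIRA fell from 26.8 to 16.3 RPKM, ATRX did not pass (11.7 to 13.8 RPKM, limma adjusted p = 0.163) and DAXX was at 0.084 RPKM or less. ASF1A, which hands H3 to HIRA, rose from 7.28 to 13.3 RPKM (adjusted p = 0.00672).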

How the data were processed

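RNA-seq was analysed in 4 of the 10 samples, 2 control and 2 TPA libraries; the 6 ChIP-seq and input samples are not analysed here. For RNA, the authors deposited 1 table of RPKM values per gene and library, per the file headers. CASAVA 1.8, Bowtie 1.12, TopHat, SAMtools and HOMER and the build hg19 are named in the submitters' processing notes, with no role or order. Counting by strand and the treatment of reads with several matches are not given in the sources used here.

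The filter kept genes that reached 1 RPKM in 2 or more libraries. TPA minus control was fitted on log2(RPKM + 1) across all of them with limma 3.58.1 in R 4.3.3, using its moderated variance with an intensity trend; the residual degrees of freedom were 2 and those of the prior 5.88. Tests were two-sided with Benjamini-Hochberg adjustment. The procedure was also run on simulated data in which only a small share of genes changed. In the real data 58.2% of the genes tested were called, so that run does not cover this setting. Relative depth came from the steps between low values. The members and gene lists were chosen with earlier results of these data known. Every member tested is named, with values by library at a mean of 5 RPKM or more, as are untested members at 0.5 RPKM or more in a library or with near-identical copies; each list gives the 3 genes with the smallest p in each direction and a set of key genes. LSM11, CDC73 and HJURP, and members named only from the fit with no filter, were chosen after their values were seen. Promoter sequences are RefSeq's for GRCh38.p14. Figures were drawn with matplotlib 3.10.9. The alternatives were other pseudocounts, filters, scalings, limma settings, thresholds, a replicate block, protein-coding genes only, sums without the highest member and each library left out.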

Additional observations from a re-analysis of the deposited data

How the results depend on the processing

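Of 24 members called, 20 (16 that rose and 4 that fell) kept their call and direction under every alternative that tested them, and 0 members reversed; the exceptions were HIST1H2AG, HIST1H2BF, HIST1H2BN and HIST2H2AC. The filter mattered most. At 5 RPKM, 10 members rose, all clustered, and 0 clustered genes fell, because fewer genes were tested. Of the 10, only HIST1H2AC, HIST1H2BD and HIST1H2BK reached 5 RPKM in a control library. The rest passed that filter only through TPA and so had to be higher there. With no filter, 9 members fell, 5 of them clustered. The clustered median log2 fold change of 1.14 became 0.0787 with no filter, 2.53 at 5 RPKM, 1.82 and 1.43 with pseudocounts of 0.1 and 0.5 and 0.95 after quantile normalization. The replacement median of -0.75 became -0.0773 with no filter. The count of 1 clustered gene that fell became 0 against a 1.2-fold change and at an adjusted p under 0.01. The count of 0 replacement variants that rose became 2 after median-of-ratios scaling, after quantile normalization and with the replicate block. Histone expression genes that rose, 4 in number, were 2 with no filter and 1 against a 1.2-fold change and at an adjusted p under 0.01. Chaperone genes that rose, 1 in number, were 0 with no filter and 2 among protein-coding genes only. Without the highest member of each class the log2 ratio of the replacement sum was -0.45, and the clustered share in control was 7.65% against 5.18%.

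With 1 library left out, its lone partner is assumed to vary like the other group. The counts then ran from 2726 to 3519 genes that rose and 2744 to 3679 that fell over all genes, from 18 to 21 members that rose and 4 to 5 that fell, from 18 to 19 clustered genes that rose and 0 to 1 that fell, and from 0 to 2 replacement variants that rose, with 4 that fell throughout. Histone expression genes that rose numbered 1 to 4 and chaperone genes 1 to 2. The clustered median ran from 1.121 to 1.35, the replacement median from -0.85 to -0.65, the log2 ratio of the clustered sum from 1.85 to 2.50 and of the replacement sum from -1.51 to -1.22, and the clustered share from 4.39% to 5.97% in control and from 35.7% to 41.6% with TPA.

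The labels give the groups the same replicate numbers, and deviations of same-numbered libraries correlated at 0.361 across genes, but 2 pairs are too few to call the libraries paired. With the replicate number as a block, 3946 genes rose and 4288 fell in all; 19 clustered genes rose and 1 fell, and 2 replacement variants (H3F3B and H3F3C) rose and 4 fell. Except where a cause is given, the cause of these shifts was not tested. Read totals were not given, so no counting interval could be set.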

Other observations

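Histone genes listed as pseudogenes were read beside the members. H3F3AP4 had 15.3 and 19.6 RPKM in control and 13.9 and 19.2 RPKM with TPA and did not pass. HIST2H2BC, in the 1q21.2 cluster, had 0.55 and 0.151 RPKM in control and 0.112 and 0.562 RPKM with TPA, with overlapping groups. HIST2H2BA and HIST1H2APS1 were listed at 0 in every library. Of the linker histone genes that lie among the clustered genes, HIST1H1D had 0.468 and 0.792 RPKM in control and 2.39 and 2.89 RPKM with TPA and rose (limma adjusted p = 3.51e-04), HIST1H1B had 0.568 and 0.945 RPKM in control and 0.083 and 0.444 RPKM with TPA and was not tested, and HIST1H1E had 0.517 and 1.82 RPKM in control and 0.389 and 1.997 RPKM with TPA and did not pass.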
